A study of Mus musculus with 18 samples.

Results

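RNA bound to ribosomes was compared with total RNA in the livers of 3 male wild type C57BL/6 mice that had eaten normal chow for 8 weeks from 8 weeks of age and were 16 weeks old at sampling. Each liver gave 1 library of RNA from ribosome-nascent chain complexes (RNC) and 1 library of total RNA (mRNA), so 6 of the series' 18 libraries were used, and 3 of its 9 livers. The members were chosen by their titles, and the RNC and mRNA libraries of a liver were paired by an animal code that both deposited files carry. Libraries of both kinds held poly(A) RNA. For the RNC, 90 mg of liver was lysed with 1% Triton X-100 and 100 µg/ml cycloheximide, and ribosomes were pelleted through 30% sucrose at 330000 g for 3 h. No library of a pellet with dissociated ribosomes was analysed here, so RNA on ribosomes cannot be told apart from RNA in other dense particles. Livers of mice on a high-fat diet (HFD) served as a second set; those of mice given lycopene as well (HFD+LYC) enter only the closing section.

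An mRNA that is being translated carries ribosomes, each with a growing peptide chain, and cycloheximide halts elongation so that the ribosomes stay in place during lysis. Such complexes are heavy and sediment through sucrose, whereas free mRNA, mRNA bound only by protein and most nuclear RNA do not. In liver, much of the translated RNA encodes secreted plasma proteins and is read by ribosomes on the endoplasmic reticulum (ER). The ratio of a gene's RNC level to its mRNA level is therefore used as a measure of how much of its RNA sits on ribosomes relative to other genes, but it does not count ribosomes per molecule or measure protein made.

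The sequences below belong to 7 genes on which the results turn: a non-coding RNA, a zinc finger gene, a selenoprotein gene, a secreted protein gene, a very short gene and a coding gene with its pseudogene. They are GENCODE M21 transcript sequences with GRCm38 coordinates, written 5′ to 3′ as DNA.
Malat1 is a nuclear long non-coding RNA, and its stretch at chr19:5795976-5796079, minus strand, lies near the 3′ end of the mature RNA. Capitals mark 2 U-rich motifs and an A-rich tract, which are known to fold into a triple helix that takes the place of a poly(A) tail.
Malat1: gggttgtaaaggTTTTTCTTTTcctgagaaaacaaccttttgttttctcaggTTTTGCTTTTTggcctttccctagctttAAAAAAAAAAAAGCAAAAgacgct
Zfp433 encodes a protein with 17 zinc fingers of the C2H2 type, and fingers 4 to 6 lie side by side at chr10:81720239-81720490, plus strand. Capitals mark the codons of the cysteines and histidines that hold the zinc ion, at the same place in each repeat.
Zfp433 finger 4: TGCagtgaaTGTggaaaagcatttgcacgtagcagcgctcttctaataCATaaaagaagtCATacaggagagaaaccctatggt
Zfp433 finger 5: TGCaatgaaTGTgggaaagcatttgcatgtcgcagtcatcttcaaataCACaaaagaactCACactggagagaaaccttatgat
Zfp433 finger 6: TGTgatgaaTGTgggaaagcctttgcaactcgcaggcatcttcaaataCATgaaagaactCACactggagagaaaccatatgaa
Selenop encodes selenoprotein P, the plasma carrier of selenium, and its reading frame holds 10 in-frame TGA codons that are read as selenocysteine. The first of them is in capitals, at chr15:3274824-3274874, plus strand.
Selenop: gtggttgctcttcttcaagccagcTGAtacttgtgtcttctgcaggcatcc
Alb encodes serum albumin, and the first 24 codons of its reading frame at chr5:90460935-90461006, plus strand, begin with its signal peptide, which the start of the propeptide follows. Capitals mark the 14 codons of hydrophobic residues (alanine, phenylalanine, isoleucine, leucine, methionine, valine and tryptophan).
Alb: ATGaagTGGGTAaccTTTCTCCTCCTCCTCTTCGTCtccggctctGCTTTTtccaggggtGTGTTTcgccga
Ndufa4 encodes a small protein of the respiratory chain, and its whole reading frame of 249 bases, joined from 4 exons between chr6:11900535-11907365, minus strand, is shown with start and stop codon in capitals.
Ndufa4: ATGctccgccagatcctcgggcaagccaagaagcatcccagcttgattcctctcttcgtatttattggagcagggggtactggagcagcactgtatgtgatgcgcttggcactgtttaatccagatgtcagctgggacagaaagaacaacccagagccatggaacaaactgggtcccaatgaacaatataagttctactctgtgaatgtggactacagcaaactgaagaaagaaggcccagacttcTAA
Mug1 encodes the plasma protease inhibitor murinoglobulin 1, and Mug-ps1 is a transcribed pseudogene of the same family. Over 4189 aligned bases the Mug-ps1 transcript was 95.4% identical to the Mug1 reading frame, and 11 of 18 gaps between them were not a multiple of 3 bases. A stretch around 1 such gap is shown, with the 4 bases that Mug-ps1 has in addition in capitals (Mug1 from chr6:121857476-121861066 and Mug-ps1 from chr6:122209085-122218187, plus strand, each across a splice junction).
Mug1: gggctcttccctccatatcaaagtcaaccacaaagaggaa
Mug-ps1: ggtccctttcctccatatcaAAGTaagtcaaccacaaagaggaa

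The files listed 24,539 genes, of which 16,591 had a read in the 6 libraries and 11,746 passed the filter on low counts. The RNC libraries held 9429838, 11712137 and 12036487 listed reads and the mRNA libraries 9022252, 6500148 and 8659161, so that 3 reads, the limit that a count of 0 allows, stood for 0.249 to 0.318 CPM in RNC and 0.333 to 0.462 CPM in mRNA, counting error only. The mRNA library of liver 2 stood apart: 23.0% of its reads were in no listed gene, against 4.39% and 4.83% in the other mRNA libraries and 0.765% to 6.31% in RNC, and long transcripts took a larger share of its reads. All values below are scaled by TMM, which sets the bulk of genes near a ratio of 0, so a ratio says how a gene ranks among genes and not whether its RNA in all was more or less often on ribosomes. With library totals alone every ratio is about 0.70 lower on the log2 scale, the median of all tested genes is -0.73 in place of -0.03, and 53 genes are higher and 4634 lower. A positive ratio below about 0.70 therefore has the opposite sign under that scaling.

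RNC and mRNA differed in many genes. By edgeR's quasi-likelihood test with the liver as a block and Benjamini-Hochberg adjustment, which gives all adjusted p-values below, 1720 genes were higher in RNC (14.6% of those tested) and 2495 lower (21.2%), together 35.9%. The 3 RNC values did not overlap the 3 mRNA values in 56.2% of tested genes. Counts of called or non-overlapping members of a list below are to be read beside these shares. Without liver 2, whose mRNA library stood apart, 1224 genes were higher and 1879 lower. Without liver 3 the counts were 50 and 596, and of 142 called genes among the 155 followed singly 95 lost their call, against 10 without liver 2 and 5 without liver 1. No gene list below had more than 1 higher member without liver 3; of the lower members, 41 Zfp genes, 7 lncRNAs, 4 hosts of small nucleolar RNAs and 3 cytochrome P450 genes were called there. Short coding RNAs, RNAs of mitochondrial and ER proteins and of plasma proteins were on the higher side. Long coding RNAs, zinc finger genes, RNAs known to be kept in the nucleus, long non-coding RNAs and pseudogenes were on the lower side.

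Length went with the ratio across coding genes, that is, genes with an NM identifier. The median log2 RNC/mRNA ratio was 1.09 for 84 genes whose longest listed transcript is under 500 bases, 0.01 for 2675 genes of 2000 to under 3000 bases, and -0.81 for 468 genes of 8000 bases or more. In the shortest class 55 genes were higher and 0 lower, and in the longest class 4 were higher and 206 lower. Genes of 4000 bases or more lay below genes under 1500 bases in each liver, with differences of -0.61, -2.15 and -1.20 log2 units in livers 1, 2 and 3 (mean -1.32, SD 0.78, n = 3). An exact permutation test over livers gave p = 0.25, the smallest that 3 livers allow, and without liver 2 the mean difference was -0.90. In HFD livers it was -1.02.

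The spread between livers came mostly from the mRNA libraries. Within a library, the median log2 CPM of long genes minus that of short genes was -1.07, -1.24 and -1.25 in RNC, against -0.41, 0.74 and -0.02 in mRNA. The RNC values lay close together and the groups did not overlap (exact two-sided permutation test, p = 0.1, the smallest possible with 3 against 3). The mean transcript length per read was 1948, 1853 and 1910 bases in RNC and 2256, 2943 and 2413 bases in mRNA. Coding genes under 1000 bases took 32.0%, 37.3% and 32.1% of reads in RNC, against 24.1%, 20.1% and 25.6% in mRNA. Coding genes of 4000 bases or more took 8.64%, 7.73% and 7.71% in RNC and 12.2%, 22.2% and 14.5% in mRNA. The unlisted reads and the long transcripts both peaked in the mRNA library of liver 2; their part in the length relation was not tested.

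**Figure D1:**
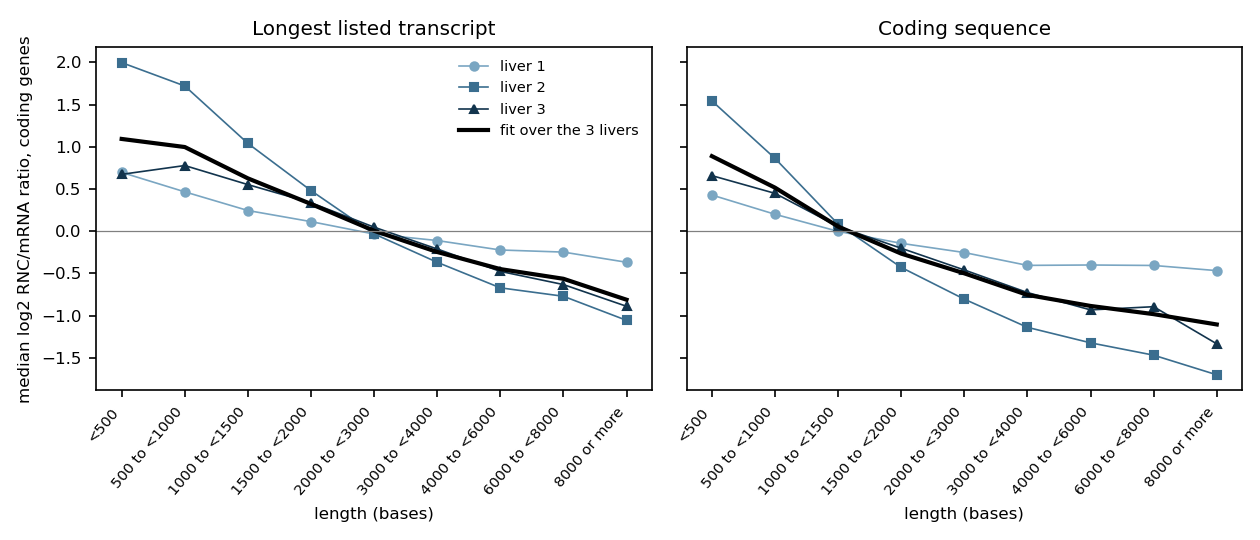
Median log2 RNC/mRNA ratio of tested coding genes in classes of the longest listed transcript (left) and of coding sequence length (right), in bases; markers are the 3 livers and the black line the fit over them. Medians fall from 1.09 to -0.81 with transcript length and from 0.89 to -1.10 with coding length, least steeply in liver 1 and most steeply in liver 2.

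The ratio went with the length of the coding sequence more than with that of the untranslated regions. Over 11,353 coding genes with a GENCODE reading frame, Spearman's rho between the ratio and length was -0.53 for the coding sequence, -0.14 for the 3′ UTR and -0.13 for the 5′ UTR, and over 11,395 genes -0.46 for the longest transcript; these describe genes, which are not independent replicates and share libraries. The median ratio was 0.89 for 1090 genes with under 500 coding bases, of which 516 were higher and 46 lower. It was -1.10 for 113 genes with 8000 coding bases or more, of which 0 were higher and 73 lower. Among genes with a 3′ UTR of 1000 to under 2000 bases, the median was 0.47, -0.14 and -0.65 in 3 equal parts from the shortest to the longest coding sequence. Among genes with 1800 to under 3000 coding bases, it was -0.53, -0.48 and -0.42 in 3 equal parts from the shortest to the longest 3′ UTR. In genes with 300 to under 600 coding bases the order was the other way, with medians of 1.0, 0.82 and 0.62 from the shortest to the longest 3′ UTR. Under library totals alone the last of these is -0.07, and the 0.47 above is -0.23.

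Base composition and level also went with the ratio. The sixth of coding genes with the highest GC content (56.6% or more) had a median of -0.44, with 106 genes higher and 571 lower, while the other sixths had medians between -0.11 and 0.14. Spearman's rho with the mean CPM was 0.32. The level enters both the ratio and the chance of a call, so this relation is given as a description only.

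Genes without a coding identifier lay lower than coding genes. Of 3824 genes with NR identifiers only, 1120 had a read and 351 were tested, and 15 were higher and 145 lower in RNC. Their median log2 ratio was -0.76, against -0.01 for the 11,395 tested coding genes, of which 1705 were higher and 2350 lower. The difference of the medians, non-coding minus coding, was -0.45, -0.94 and -0.92 in livers 1, 2 and 3 (mean -0.77, SD 0.28, n = 3; exact permutation test over livers, p = 0.25, the smallest possible). Set against coding genes of the same length and level classes, the mean difference was -0.81. It was -0.35 with no filter on low counts and -1.42 among genes with a mean of 10 CPM or more. Genes that list both NM and NR identifiers lay between, with a median of -0.26 over 478 genes, 54 higher and 136 lower.

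The reads of non-coding genes showed the same order. Genes with NR identifiers only took 0.337%, 0.252% and 0.240% of reads in RNC, against 0.897%, 2.43% and 1.34% in mRNA. Malat1 and Neat1 together took 0.0238%, 0.0160% and 0.0181% in RNC, against 0.210%, 0.585% and 0.405% in mRNA. Neither pair of groups overlapped (exact two-sided permutation test, p = 0.1 each, the smallest possible).

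**Figure D2:**
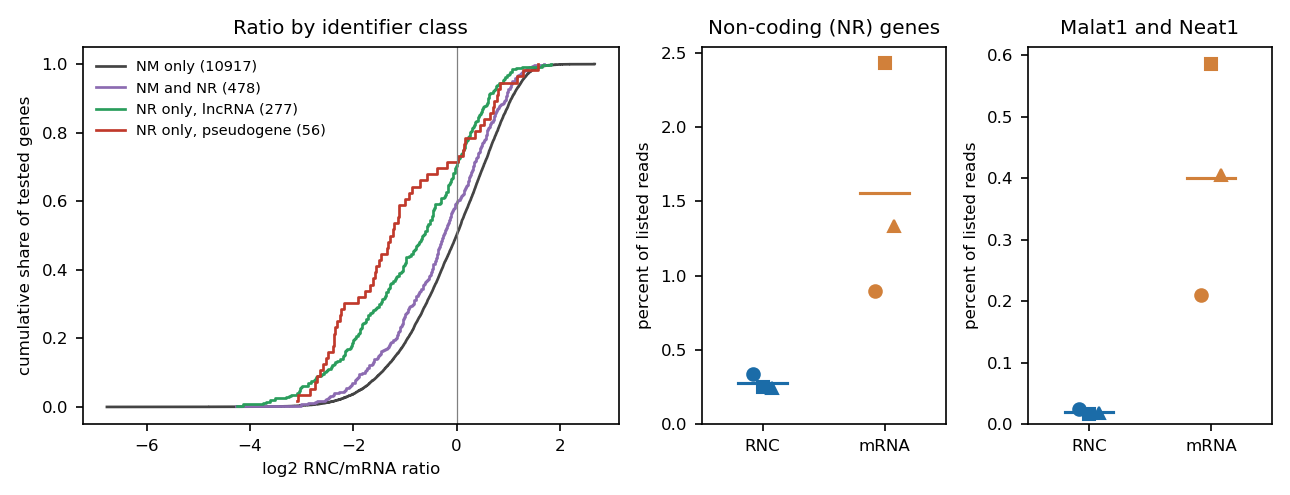
Left, cumulative share of tested genes by log2 RNC/mRNA ratio, for genes with NM identifiers only, NM and NR, and NR only (RefSeq lncRNA or transcribed pseudogene), with gene numbers; middle and right, percent of listed reads on all NR-only genes and on Malat1 and Neat1 in each library (circle, square and triangle are livers 1, 2 and 3; lines are means). Pseudogenes and lncRNAs are shifted left of coding genes, and the RNC libraries hold 0.240% to 0.337% of reads on NR-only genes against 0.897% to 2.43% in mRNA.

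Within non-coding genes the median was 0.03 for 85 genes under 1000 bases (-0.65 under library totals alone) and -0.46 from 1000 to under 1500 bases. Past that there was no steady fall, with -1.29 from 1500, -1.23 from 2000, -0.95 from 3000 and -1.45 from 4000 bases. The 277 RefSeq lncRNAs had a median of -0.65, with 9 higher and 106 lower. The 56 transcribed pseudogenes had a median of -1.26, with 3 higher and 33 lower. For 288 of the 351 non-coding genes (82.1%) a GENCODE transcript was matched. The longest reading frame that starts with ATG had a median of 65 codons in the 13 higher genes, 102 in the 114 lower genes and 70 in the 161 genes not called. As a share of the transcript the order was the other way, with medians of 21%, 14.3% and 16.8%. Spearman's rho with the ratio was -0.33 for the frame in codons and 0.11 for its share of the transcript, over the 288 genes.

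Malat1, whose triple helix stretch is printed above, is a component of nuclear speckles. It had 57.8, 39.8 and 49.5 CPM in RNC, against 856, 820 and 1140 CPM in mRNA. The RNC values were all far below the mRNA values (log2 ratio -4.26 ± 0.42 SE, adjusted p = 3.11e-05). Neat1, the scaffold of nuclear paraspeckles, had 225, 170 and 192 CPM in RNC, against 996, 3024 and 2255 CPM in mRNA (-3.29 ± 0.48, adjusted p = 0.000406). Of the 14 tested well-known lncRNAs, 9 were lower and 0 higher, with a median of -1.97. Firre, an X-linked nuclear RNA, had 29.3, 15.8 and 14.7 CPM in RNC and 94.6, 220 and 159 CPM in mRNA (-2.99 ± 0.43, adjusted p = 0.000399). Kcnq1ot1, an imprinted RNA known to silence its neighbours, had 2.02, 1.91 and 1.99 CPM in RNC and 7.80, 21.8 and 21.7 CPM in mRNA (-3.0 ± 0.37, adjusted p = 0.000127). It runs antisense to Kcnq1, and strand use in counting is not given, so reads of the pair cannot be told apart. Meg3, another imprinted RNA, had 1.51, 0 and 0.111 CPM in RNC and 5.75, 13.2 and 7.45 CPM in mRNA (adjusted p = 0.000738). Its RNC libraries held 0 to 12 reads, so it passed the filter only through its mRNA libraries, where it was high. Its ratio is therefore no independent support for the others.

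Hosts of small nucleolar RNAs are spliced RNAs whose introns give the small RNAs. Of 20 tested, 8 were lower and 0 higher, with a median of -0.65. Snhg20 had 2.52, 3.14 and 2.32 CPM in RNC and 13.6, 35.5 and 20.1 CPM in mRNA (-3.03 ± 0.33, adjusted p = 5.57e-05). Gas5, a host gene known for a 5′ TOP start and for decay when it is translated, had 17.7, 17.6 and 16.4 CPM in RNC and 38.4, 65.3 and 65.6 CPM in mRNA (-1.67 ± 0.32, adjusted p = 0.00157). Its RNC values were all below its mRNA values, but non-overlap held in 56.2% of all tested genes. Of 1310 listed genes with symbols of small structured RNAs, 1289 had no read and 3 were tested. Of these 3, Mir17hg (-2.07 ± 0.36, adjusted p = 0.000904) and Mir22hg (-1.87 ± 0.35, adjusted p = 0.00134) are long host transcripts of microRNAs, and Rpph1, the RNA of RNase P, was not called.

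A few NR genes went the other way. AW112010, which is labelled non-coding but is known to be translated in mouse immune cells, had 148, 159 and 158 CPM in RNC, against 63.1, 21 and 59.8 CPM in mRNA (1.83 ± 0.40, adjusted p = 0.00345). Its RNC values lay close together and above all mRNA values, the latter being a condition for naming it. 1500011K16Rik had 30.1, 32.2 and 27.8 CPM in RNC and 16.8, 5.76 and 15.4 CPM in mRNA (1.36 ± 0.35, adjusted p = 0.0098). In the RefSeq annotation of GRCm38.p6, 7 tested genes with NR identifiers only are typed as protein coding. Of these 2 were higher and 1 lower, and their median was 0.62 (-0.08 under library totals alone). The higher ones, 0610012G03Rik and 2610001J05Rik, had ratios of 1.10 ± 0.34 and 1.06 ± 0.29 (adjusted p = 0.0221 and 0.0126). With library totals alone these ratios are 0.40 and 0.36, and that of 1500011K16Rik is 0.67. The calls of these 3 genes were lost there, without liver 3 and over all 18 libraries. The call of AW112010 was lost without liver 3 and over all 18 libraries.

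The reverse case was larger. The same annotation types 13 tested genes with NM identifiers as transcribed pseudogenes, and 12 of them were lower in RNC and 0 higher, with a median of -2.09. These genes and the pseudogene pairs below were picked after their values were seen. Mx1 and Mx2 encode interferon-induced antiviral GTPases, and Mx1 is known to be inactive in C57BL/6 mice through a deletion. Mx1 had 2.65, 0.897 and 1.44 CPM in RNC and 3.8, 5.66 and 6.39 CPM in mRNA (-1.71 ± 0.45, adjusted p = 0.0102). Mx2 had 4.04, 7.52 and 6.42 CPM in RNC and 10.6, 47.3 and 28 CPM in mRNA (-2.09 ± 0.33, adjusted p = 0.000558). Oas1b, an interferon-induced gene whose C57BL/6 allele carries a premature stop codon, had 1.77, 0.897 and 1.22 CPM in RNC and 3.71, 8.6 and 6.10 CPM in mRNA (-2.19 ± 0.45). The RNC libraries held 8 to 21 reads of Mx1 and 8 to 14 of Oas1b. Both genes passed the filter only through their mRNA libraries, so their ratios are no independent support for the others. Cxcl11, a chemokine gene with a frameshift in this strain, had 2.77, 1.91 and 2.43 CPM in RNC and 7.71, 29.9 and 10.1 CPM in mRNA (-2.50 ± 0.42). Hyi, a hydroxypyruvate isomerase gene, was the exception, with 68.5, 41.4 and 40.8 CPM in RNC and 70.2, 59.3 and 52.9 CPM in mRNA (-0.31 ± 0.30, adjusted p = 0.436).

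Pseudogenes whose symbols end in -ps were lower in 14 of 19 cases and higher in 1, with a median of -2.26. Mug-ps1, shown above beside Mug1, had 227, 79.6 and 70.3 CPM in RNC, against 647, 1649 and 678 CPM in mRNA (-3.07 ± 0.52, adjusted p = 0.000852). Its coding relative Mug1 had 1702, 1618 and 2019 CPM in RNC and 2116, 3812 and 2045 CPM in mRNA (-0.52 ± 0.41, adjusted p = 0.326). Mug2, the other coding relative, had 697, 422 and 488 CPM in RNC and 1217, 1670 and 912 CPM in mRNA (-1.23 ± 0.41, adjusted p = 0.0280), so it was called lower as well. Pisd-ps3 had 99.2, 50.3 and 64.4 CPM in RNC and 313, 633 and 484 CPM in mRNA (-2.74 ± 0.45, adjusted p = 0.000643). Pisd, which encodes a mitochondrial enzyme that makes phosphatidylethanolamine, had 9.96, 11.6 and 12.7 CPM in RNC and 14.1, 15.0 and 14.0 CPM in mRNA (-0.34 ± 0.28, adjusted p = 0.349). Serpina4-ps1 had 153, 121 and 72.9 CPM in RNC and 445, 1770 and 425 CPM in mRNA (-2.64 ± 0.47, adjusted p = 0.00106). Counting could split reads between near-identical relatives, so the level of each of these genes is uncertain. The single higher one, Rps15a-ps4, averaged only 2.86 CPM and had a ratio of 1.58, close to the 1.36 of its parent Rps15a, a ribosomal protein gene. Other pairs went both ways. Marcksl1-ps4 (0.80 against 0.78) and Ube2d-ps (0.59 against a median of 0.26) did not lie below their relatives and were not called. Pisd-ps1 (-2.31 against -0.34) and Rps19-ps3 (-1.11 against 0.55) did, and of these only Pisd-ps1 was called.

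Some coding mRNAs are known to be held in the nucleus or to keep introns. Of 8 such genes tested, 6 were lower and 0 higher, with a median of -1.88. Without liver 3, 0 were lower, so the calls of Mlxipl, Nlrp6 and Clk1 below were lost there too. Mlxipl encodes ChREBP, the factor that turns on lipid synthesis genes when glucose is high, and its spliced mRNA is known to be retained in liver nuclei. It had 232, 174 and 199 CPM in RNC, against 584, 2042 and 1164 CPM in mRNA (-2.48 ± 0.47, adjusted p = 0.00144). Nlrp6, an innate immune sensor gene with the same known retention, had 165, 118 and 142 CPM in RNC and 354, 1502 and 662 CPM in mRNA (-2.32 ± 0.48, adjusted p = 0.00274). Clk1, a kinase of splicing factors with detained introns, had 56.4, 42.7 and 28.7 CPM in RNC and 165, 380 and 213 CPM in mRNA (-2.54 ± 0.42, adjusted p = 0.000676). In each of these genes the highest RNC value was below the lowest mRNA value, but non-overlap held in 56.2% of all tested genes.

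RNAs for splicing factors had 3 of 41 higher and 10 lower, with a median of -0.13. These are 7.32% and 24.4%, against 14.6% and 21.2% of all tested genes. Srsf11 had 60.8, 51.3 and 36.3 CPM in RNC and 134, 343 and 192 CPM in mRNA (-2.10 ± 0.41, adjusted p = 0.00169). Sf3b6, which encodes a branch point protein, was higher, with 27.0, 39.0 and 48.8 CPM in RNC and 17.8, 5.16 and 16.6 CPM in mRNA (1.66 ± 0.39, adjusted p = 0.00556). F830016B08Rik had the lowest ratio among the called coding genes with a mean of 10 CPM or more. It had 1.77, 1.68 and 0.885 CPM in RNC and 17.6, 66.2 and 80.2 CPM in mRNA (-5.02 ± 0.50, adjusted p = 3.11e-05). Its RNC libraries held 8 to 15 reads, so it passed the filter only through its mRNA libraries, where it was high. The size and rank of its ratio therefore rest on few RNC reads.

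Zinc finger genes were lower as a class. Of 371 genes whose reading frame holds at least 3 C2H2 motifs, 184 were lower and 0 higher, with a median of -1.0, against 0.02 in the 10,982 other coding genes. Among genes with 1200 to under 1800 coding bases, 165 zinc finger genes had a median of -0.92 and 2565 others a median of -0.05. The gap was present in each liver, at -0.67, -1.05 and -0.95 for the zinc finger genes against -0.05, -0.12 and -0.01 for the others. Their level was lower too, with a median of 5.85 CPM against 15.4 CPM, and its part in the gap was not tested. By symbol, 152 of 305 tested Zfp genes were lower and 1 higher.

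Zfp433, whose fingers are printed above, had 2.14, 4.60 and 1.99 CPM in RNC, against 21.5, 30.8 and 24.3 CPM in mRNA (-3.19 ± 0.33, adjusted p = 3.26e-05). Zfp182 had 5.42, 2.02 and 2.10 CPM in RNC and 23.8, 52.2 and 28.3 CPM in mRNA (-3.47 ± 0.43, adjusted p = 0.000124). Both were lower in RNC of every liver, which the rule that chose them required. Zfp706, which encodes a short protein, was the exception, with 116, 140 and 126 CPM in RNC and 85.5, 33.8 and 73.2 CPM in mRNA (1.08 ± 0.38, adjusted p = 0.0350). Its call was lost without liver 2, without liver 3, with library totals alone, among genes averaging 10 CPM or more and over all 18 libraries.

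A hydrophobic stretch at the start of the protein, as in signal peptides, went with a higher ratio in longer coding sequences. The feature was called where 8 residues in a row among the first 30 averaged a Kyte-Doolittle hydropathy of at least 2. The 2540 genes with it had a median of 0.23 (-0.47 under library totals alone), with 484 higher and 399 lower, against -0.08 in 8813 genes without it, with 1212 higher and 1938 lower. The shares with the feature were 19.1% higher and 15.7% lower, not far from the 14.6% and 21.2% of all tested genes. At 1200 to under 1800 coding bases the medians were 0.20 with the feature and -0.20 without it, and at 300 to under 600 bases 0.88 and 0.82.

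**Figure D3:**
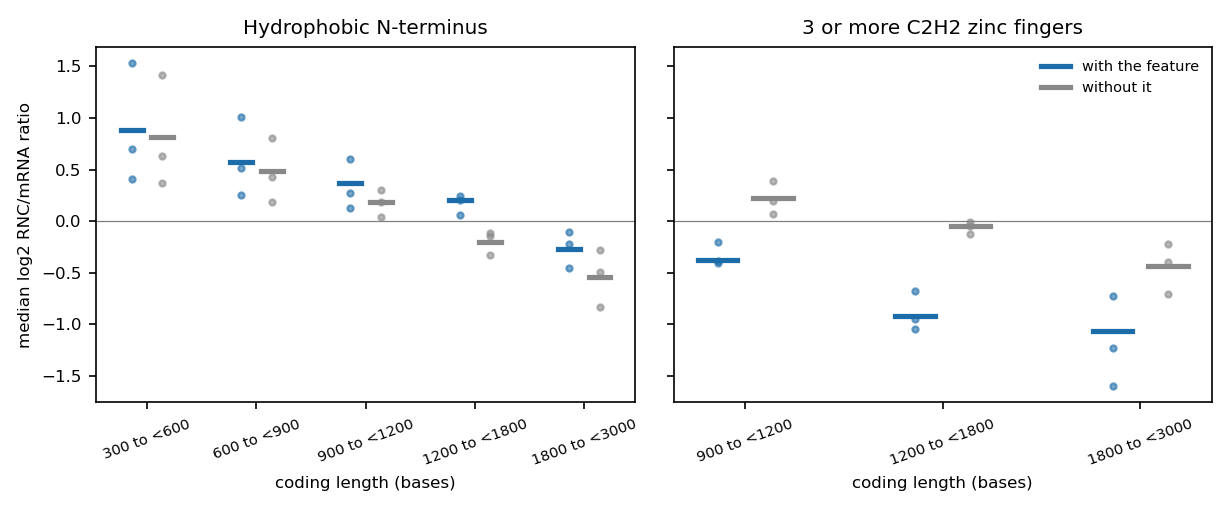
Median log2 RNC/mRNA ratio of coding genes with a feature (blue) and without it (grey), in classes of coding length in bases, for a hydrophobic N-terminus (left) and for 3 or more C2H2 zinc fingers (right); bars are the fit over the livers and points the 3 livers. At 1200 to under 1800 coding bases the zinc finger genes lie at -0.92 against -0.05, and genes with a hydrophobic N-terminus at 0.20 against -0.20.

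Plasma protein RNAs were on the higher side. Of 47 tested, 14 were higher (29.8%, against 14.6% of all tested genes) and 1 lower (2.13% against 21.2%), with a median of 0.74. Without liver 2, 20 were higher, and without liver 3, 0 were. As a share of all listed reads, plasma proteins took 20.6% to 23.6% in RNC and 11.7% to 23.0% in mRNA, which overlapped (exact two-sided permutation test, p = 0.2). The read shares of respiratory chain (p = 0.2), ribosomal protein (p = 0.6) and cytochrome P450 genes (p = 0.9) overlapped too by the same exact test. Alb, whose signal peptide codons are printed above, had 85946, 85769 and 107161 CPM in RNC, against 56641, 12728 and 37948 CPM in mRNA (1.61 ± 0.51, adjusted p = 0.0230). Ttr, the carrier of thyroid hormone and retinol-binding protein, had 14517, 15051 and 16344 CPM in RNC and 9438, 2324 and 6729 CPM in mRNA (1.52 ± 0.48, adjusted p = 0.0230). Both calls were lost without the block by liver, with library totals alone, over all 18 libraries and without liver 3. For both genes the RNC values were alike while the mRNA value of liver 2 was far below those of the other livers. Apob, whose very long reading frame encodes the core protein of lipoproteins, had 2363, 2885 and 3299 CPM in RNC and 2025, 1594 and 2210 CPM in mRNA. Its ratio of 0.55 ± 0.40 was not called (adjusted p = 0.274) and is -0.15 under library totals alone, while coding genes of its length class had a median of -0.81. Itih3, a hyaluronan-binding plasma protein gene, was the lower one, with 495, 511 and 680 CPM in RNC and 737, 3386 and 2117 CPM in mRNA (-1.65 ± 0.46, adjusted p = 0.0135).

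ER chaperones and folding enzymes were higher: 13 of 17 were called higher (76.5%, against 14.6% of all tested genes) and 0 lower. Their median of 1.3 is 1.11 above coding genes of the same length class. Without liver 2, 11 were higher, and without liver 3, 0 were. Manf, a chaperone of the ER stress response, had 139, 325 and 425 CPM in RNC, against 92.9, 33.0 and 132 CPM in mRNA (1.84 ± 0.48, adjusted p = 0.00945). Pdia3, a disulfide isomerase, had 733, 810 and 1165 CPM in RNC and 397, 149 and 540 CPM in mRNA (1.47 ± 0.42, adjusted p = 0.0149). Spcs1, a subunit of the signal peptidase, had 32.3, 49.1 and 73.2 CPM in RNC and 18.8, 6.77 and 13.5 CPM in mRNA (2.02 ± 0.39, adjusted p = 0.00165). In Manf and Pdia3 the 3 RNC values lay above the 3 mRNA values, and for Spcs1 this was a condition for naming it. Non-overlap held in 56.2% of all tested genes.

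Selenoprotein RNAs recode a TGA stop codon. Of 20 tested, 8 were higher (40%, against 14.6% of all tested genes) and 0 lower. Their median was 0.93, and 3 had a ratio below 0. Selenop, whose first TGA is printed above, had 3076, 3752 and 4975 CPM in RNC, against 1792, 457 and 1747 CPM in mRNA (1.76 ± 0.48, adjusted p = 0.0119). Selenof, an ER selenoprotein, had 232, 323 and 366 CPM in RNC and 134, 47.8 and 133 CPM in mRNA (1.66 ± 0.43, adjusted p = 0.00903). Dio1, which activates thyroid hormone, had 112, 206 and 195 CPM in RNC and 53.4, 68.4 and 78.0 CPM in mRNA (1.33 ± 0.35, adjusted p = 0.0101).

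Mitochondrial proteins made in the cytosol were mostly on the higher side. Of 79 tested subunits of the respiratory complexes, 63 were higher and 1 lower, with a median of 1.29. Without liver 2, 58 were higher, and without liver 3, 0 were. The median was 0.42 above coding genes of the same length class. Ndufa4, printed above in full, had 833, 826 and 867 CPM in RNC, against 394, 81.1 and 279 CPM in mRNA (2.00 ± 0.46, adjusted p = 0.00511). Sdhd, a membrane anchor of complex II, had 135, 217 and 224 CPM in RNC and 84.5, 28.1 and 67.6 CPM in mRNA (1.78 ± 0.43, adjusted p = 0.00675). Among mitochondrial ribosomal proteins 55 of 78 were higher and 1 lower, with a median of 1.00. The lower one, Mrpl18, had 58.8, 49.6 and 45.8 CPM in RNC and 112, 212 and 131 CPM in mRNA (-1.51 ± 0.36, adjusted p = 0.00577). Of 22 genes of fatty acid beta-oxidation 10 were higher and 0 lower (median 0.95), and of 39 proteasome genes 23 were higher and 0 lower (median 0.96). These are 45.5% and 59.0% higher, against 14.6% of all tested genes.

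Cytosolic ribosomal proteins are encoded by short RNAs whose 5′ TOP starts allow their translation to be switched off when growth signals are low. Of 82 tested, 34 were higher and 0 lower, with a median of 1.01, and coding genes of their length class had a median of 1.00. Set against its own length class, the median member differed by 0.06. Without liver 2, 24 were higher, and without liver 3, 0 were. Rps4x had 289, 310 and 295 CPM in RNC, against 189, 49.9 and 123 CPM in mRNA (1.49 ± 0.43, adjusted p = 0.0154). Rpl13a had 721, 694 and 564 CPM in RNC and 580, 277 and 424 CPM in mRNA (0.68 ± 0.39, adjusted p = 0.171, and -0.02 under library totals alone). The Rps4x groups were apart, as in 56.2% of all tested genes, and the Rpl13a groups overlapped. Ribosomal protein genes have many processed pseudogenes, so their counts are uncertain. Of 17 other 5′ TOP genes 5 were higher and 0 lower (median 0.80). Without liver 1, 9 of them were higher, and without liver 3, 0 were.

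Translation initiation factors had 16 of 53 genes higher and 3 lower (median 0.76). These are 30.2% and 5.66%, against 14.6% and 21.2% of all tested genes. Eif2s3x, a subunit of the factor that brings the initiator tRNA, had a ratio of 1.44 ± 0.36 (adjusted p = 0.00742). The lower ones encode large proteins, Eif4g3 (-1.6 ± 0.36), the kinase Eif2ak4 (-1.26 ± 0.35) and Eif4enif1 (-1.05 ± 0.35). Genes with regulatory upstream reading frames, 14 tested, had 1 higher, 2 lower and a median of 0.33 (-0.38 under library totals alone). These counts are 7.14% and 14.3%, both below the 14.6% and 21.2% of all tested genes. Atf4, the stress factor whose upstream frames limit its translation in unstressed cells, had 134, 126 and 104 CPM in RNC and 188, 155 and 133 CPM in mRNA (-0.38 ± 0.35, adjusted p = 0.390). Its groups overlapped. Genes with iron-responsive elements, which bind regulators that block ribosomes in iron-poor cells, had 0 of 8 called and a median of 0.43 (-0.27 under library totals alone). Ftl1, the ferritin light chain, had 4259, 3181 and 3238 CPM in RNC and 3583, 1095 and 2256 CPM in mRNA (0.77 ± 0.42, adjusted p = 0.156).

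The coding genes with the largest ratios were short. Besides the globin genes, Spcs1 and Ndufa4, they held Prdx1, a peroxiredoxin that removes hydrogen peroxide, with 991, 1152 and 1570 CPM in RNC and 538, 113 and 426 CPM in mRNA (2.03 ± 0.48, adjusted p = 0.00565). Wfdc21, which encodes a small secreted protein, had 310, 487 and 469 CPM in RNC and 155, 31.4 and 144 CPM in mRNA (2.17 ± 0.51, adjusted p = 0.00556). Akr1c19, an aldo-keto reductase gene with close relatives, had 20.8, 25.5 and 39.5 CPM in RNC and 14.2, 1.92 and 6.87 CPM in mRNA (2.18 ± 0.45, adjusted p = 0.00276). Among the coding genes with the lowest ratios were, besides F830016B08Rik and the zinc finger genes above, Adrb3, Col27a1 and Grik5. Adrb3, the beta-3 adrenergic receptor of fat, had 11.5, 2.47 and 3.98 CPM in RNC and 45.2, 68.3 and 41.3 CPM in mRNA (-3.31 ± 0.45, adjusted p = 0.000283). Col27a1, a fibrillar collagen gene of cartilage, had 33.4, 20.5 and 33.0 CPM in RNC and 149, 548 and 301 CPM in mRNA (-3.35 ± 0.49, adjusted p = 0.000419). Grik5, a subunit of kainate receptors, had 8.83, 4.15 and 3.10 CPM in RNC and 26.5, 84.3 and 33.1 CPM in mRNA (-3.10 ± 0.45, adjusted p = 0.000419). Non-overlap of the RNC and mRNA values was a condition for naming these genes, and it held in 56.2% of all tested genes.

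Cytochrome P450 genes, which oxidize drugs and sterols, had 13 of 55 higher and 10 lower, with a median of 0.46 (-0.25 under library totals alone). Cyp2c70, which makes muricholic acid, had 496, 675 and 786 CPM in RNC and 266, 142 and 224 CPM in mRNA (1.65 ± 0.40, adjusted p = 0.00678). Cyp2j9 had 10.1, 5.72 and 6.53 CPM in RNC and 32.7, 91.4 and 40.4 CPM in mRNA (-2.76 ± 0.41, adjusted p = 0.000461). Of the family, 23.6% were higher and 18.2% lower, against 14.6% and 21.2% of all tested genes. Calls in both directions were thus not particular to it. The family also has near-identical members whose reads counting could split. Genes of cholesterol synthesis had 2 of 22 higher and 0 lower (median 0.41, and -0.29 under library totals alone). Without liver 1, 5 of them were higher, and without liver 3, 0 were. The 9.09% called higher with all livers was below the 14.6% of all tested genes. Genes that make fatty acids and triglycerides had 4 of 20 higher and 2 lower (median 0.29, and -0.41). These are 20% and 10%, against 14.6% and 21.2% of all tested genes. Of the urea cycle genes 3 of 8 were higher and 0 lower (median 0.89).

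**Figure D4:**
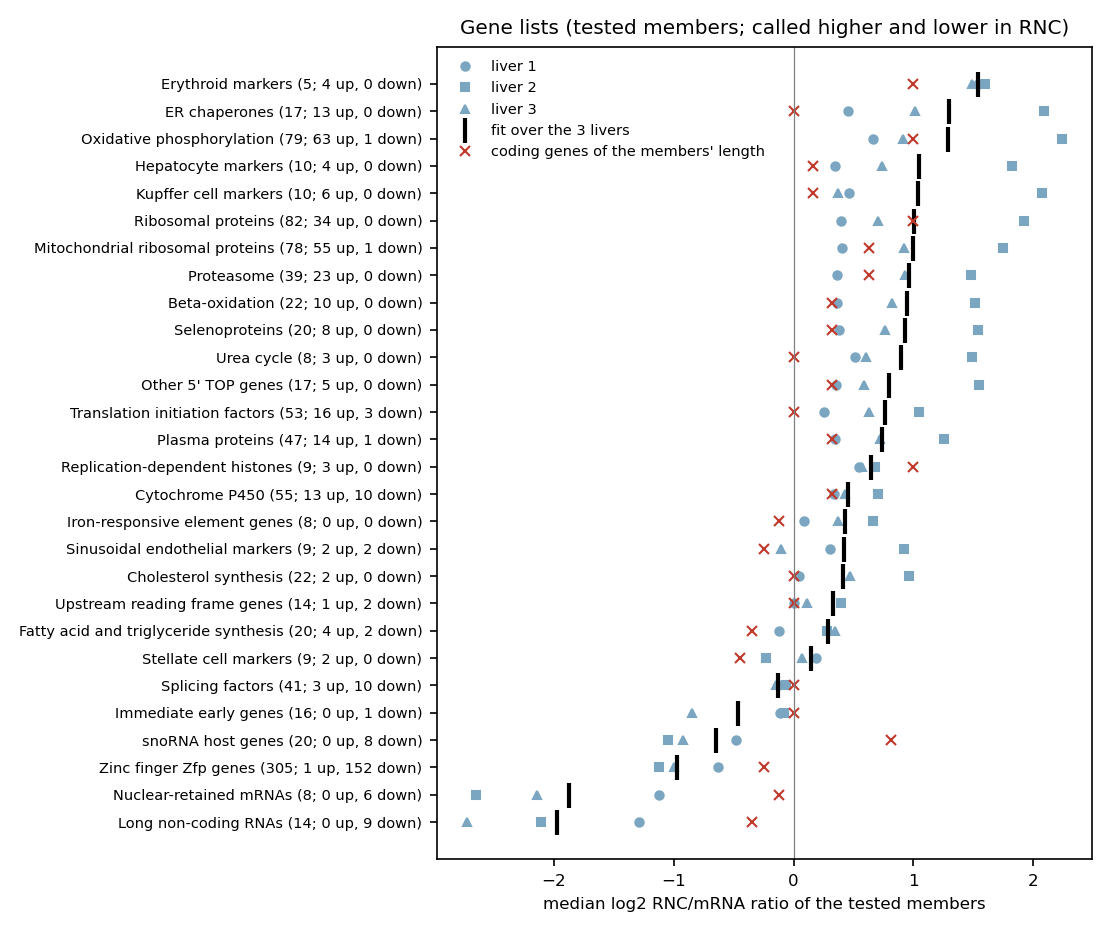
Median log2 RNC/mRNA ratio of each gene list with at least 5 tested members; labels give tested, called higher and called lower members, markers the 3 livers, black ticks the fit, and red crosses the median ratio of coding genes in the members' length classes. Erythroid, ER chaperone and respiratory chain lists lie at 1.54, 1.3 and 1.29, and the lncRNA and nuclear-retained lists at -1.97 and -1.88.

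Liver was the labelled tissue, and it was checked against marker genes of its cell types, with hepatocyte markers summing to 132126 to 164300 CPM in RNC and 28154 to 93447 CPM in mRNA. In bulk libraries, fewer cells of a type and less RNA per cell cannot be told apart. Of 5 tested erythroid genes 4 were higher and 0 lower, with a median of 1.54, and livers differed little (1.54, 1.60 and 1.49). Hbb-bs, a beta globin gene, had 379, 465 and 1010 CPM in RNC, against 94.4, 102 and 191 CPM in mRNA (2.2 ± 0.38, adjusted p = 0.000898). Hba-a2, an alpha globin gene, had 380, 356 and 685 CPM in RNC and 131, 118 and 244 CPM in mRNA (1.54 ± 0.37, adjusted p = 0.00586). The globin genes were high in liver 3 in both kinds of library, unlike Alb and Ttr, which were lowest in the mRNA of liver 2, and their close copies make each globin count uncertain. Of 10 Kupffer cell markers 6 were higher and 0 lower (median 1.04; 2 higher without liver 2). Vsig4, a complement receptor of Kupffer cells, had 19.9, 30.1 and 30.5 CPM in RNC and 11.1, 4.04 and 13.2 CPM in mRNA (1.60 ± 0.37, adjusted p = 0.00500). Of 9 sinusoidal endothelial markers 2 were higher and 2 lower, 22.2% each, against 14.6% and 21.2% of all tested genes. Their median was 0.42 (-0.27 under library totals alone), and 6 of the 9 had a ratio above 0. The higher ones were Clec4g (0.91 ± 0.32) and Fcgr2b (1.02 ± 0.31). The lower ones were the very long RNAs of the scavenger receptors Stab1 (-1.06 ± 0.36) and Stab2 (-1.22 ± 0.33). The RNC and mRNA values of Stab1 overlapped. Spp1, the osteopontin gene and a cholangiocyte marker, had 25.5, 21.5 and 29.8 CPM in RNC and 107, 94.1 and 95.8 CPM in mRNA (-1.96 ± 0.32, adjusted p = 0.000635). Stellate cell markers had 2 of 9 higher and 0 lower (median 0.14, and -0.56 under library totals alone). Their 22.2% higher rests on 2 genes and stands beside 14.6% of all tested genes. Of 2 tested cholangiocyte markers 1 was lower, and of 2 lymphocyte markers 0 were called. Skeletal muscle markers summed to 0.44 to 2.14 CPM in RNC and 0.59 to 1.62 CPM in mRNA.

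**Figure D5:**
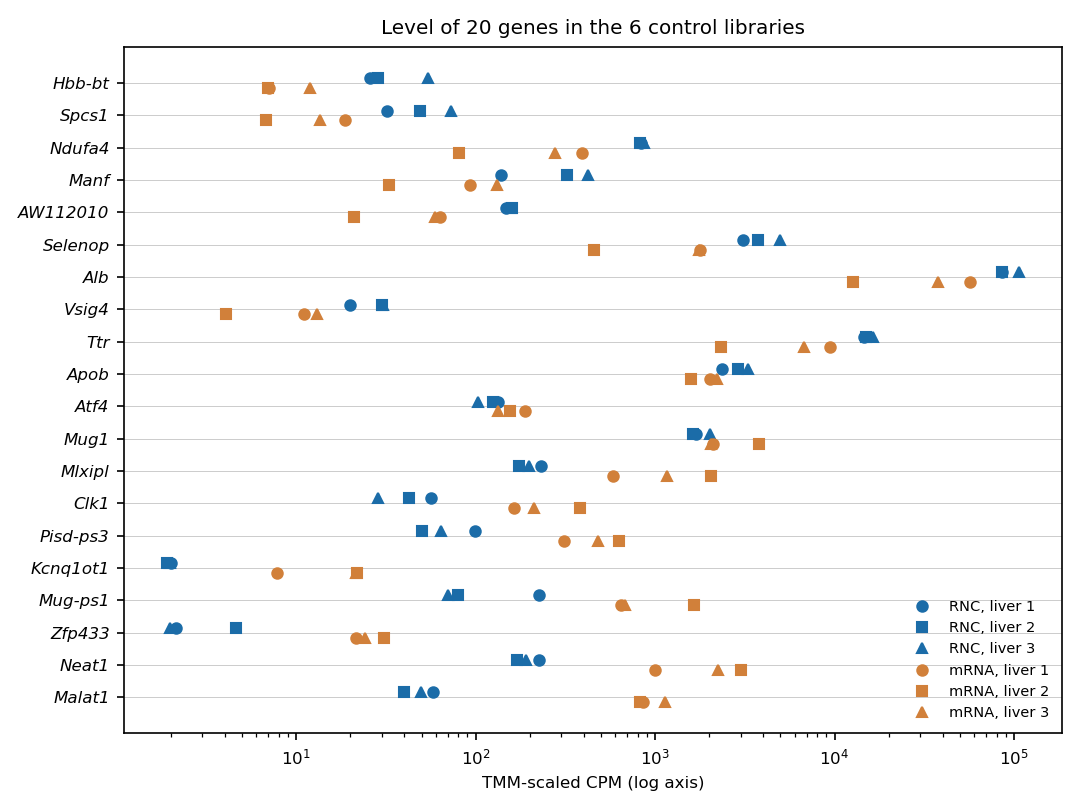
TMM-scaled CPM on a log axis of 20 genes in the 3 RNC libraries (blue, upper row of each gene) and the 3 mRNA libraries (orange, lower row), ordered by ratio, with a marker for each liver. Malat1 lies at 39.8 to 57.8 CPM in RNC against 820 to 1140 CPM in mRNA, Hbb-bt at 25.9 to 54.7 against 6.98 to 12 CPM, and Atf4 overlaps.

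The HFD livers gave the same comparison in libraries that share none with the chow livers. Of 1719 genes called higher in chow livers and tested in HFD livers, 1716 had a ratio above 0 there, and of 2441 called lower, 2435 had a ratio below 0. In HFD livers 49.3% of all genes tested in both lay above 0. Of 7445 genes not called in chow livers, 83.1% had the same sign in both diets. The median ratio of the called genes was 0.95 and -1.19 in HFD livers, against 1.14 and -1.45 in chow livers. Malat1 had a ratio of -4.11 in HFD livers, Ndufa4 1.81, Mlxipl -2.22 and Zfp433 -1.97. Across 11,605 genes Spearman's rho between the diets was 0.92, which describes genes measured with the same assay and includes the length relation.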

How the data were processed

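The deposited files give 1 library each. Per the file headers they hold a read count per gene with splice variants merged, an RPKM value and a "max length" column in bases; per the series' design text the authors mapped poly(A) reads to RefSeq RNA sequences and calculated RPKM from them. Per the submitters' processing notes bcl2fastq and build mm10 were used; the sources used here name no aligner, no settings and no use of strand. Only the deposited counts were tested, and RPKM served to recover each library's total, and from it the share of reads in no listed gene. Listed reads ranged from 9429838 to 12036487 in RNC and from 6500148 to 9022252 in mRNA. Libraries of a kind differed beyond sampling noise in every pair.

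Genes passing filterByExpr were fitted with edgeR 4.0.16 (TMM, robust quasi-likelihood, liver and library kind as terms, 2 residual degrees of freedom, R 4.3.3) and called at a Benjamini-Hochberg adjusted p under 0.05. Standard errors are the log2 ratio over the square root of F, and the biological coefficient of variation was 0.278. Per-liver ratios used a prior count of 1. The RNC and mRNA libraries of a number share an animal code, so they pair; deviations from the group means correlated at -0.03, -0.08 and 0.39 within a liver and at -0.40 to 0.21 between livers, over 7239 genes. Tested on simulated counts for this comparison, the fit called 17.9% of genes changed 2-fold, 97.0% of those changed 4-fold and 100% of those changed 8-fold. The simulation used a common dispersion and the same change in every liver. Ratios differed between livers in the data, so these shares do not carry over to them. Coding lengths, motifs and sequences came from GENCODE M21 (GRCm38), and gene types from RefSeq, matched for 24,462 of 24,539 genes.

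Genes named are the 10 coding and 5 non-coding genes with the largest called ratios each way (mean of at least 10 CPM, no overlap), up to 3 called genes of smallest p a direction in each list, and examples; pseudogene pairs and the NM genes typed as pseudogenes were chosen after their values were seen. The members and lists were chosen with earlier results of these data known. Alternatives were no block, DESeq2 1.42.0, limma-voom 3.58.1, RLE factors, library totals, other filters and prior counts, the HFD and all libraries, and each liver left out.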

Additional observations from a re-analysis of the deposited data

How the results depend on the processing

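With no replicate block 1385 genes were higher, against 1720 with the pairing of libraries by liver, and 2497 were lower, against 2495. Of the single genes followed, 14 lost their call. With library totals alone 53 genes were higher and 4634 lower, and among genes averaging 10 CPM or more 1059 were higher. In a fit over all 18 libraries 0 genes were higher and 2 lower by edgeR, with 3306 at an unadjusted p under 0.05; the cause was not tested. DESeq2 gave 1980 higher and 2212 lower, limma-voom 1927 and 2530. Leaving out 1 liver gave 50 to 2138 higher and 596 to 2987 lower genes, a difference non-coding minus coding of -0.93 to -0.69, and a difference long minus short of -1.68 to -0.90. The difference non-coding minus coding was -0.35 with no filter on low counts, -1.42 in genes averaging 10 CPM or more and -1.68 in HFD+LYC livers. Of 32 list medians, 25 moved by more than the spread between livers with library totals alone, and 0 with no replicate block, DESeq2, limma-voom or RLE factors.

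Exact permutation tests over 3 livers cannot go below p = 0.25 and tests of 3 against 3 libraries cannot go below p = 0.1. Ratios are relative to the bulk of genes. Genes of few reads were seldom tested: 351 of 3824 non-coding genes were. A gene could also pass the filter through its mRNA libraries alone, as Meg3, F830016B08Rik, Mx1 and Oas1b did with few RNC reads. The mRNA library of liver 2 differs from the others in unlisted reads and length, and its RNA quality was not measured in the files used here.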
